A study of Mus musculus with 9 samples.

Results

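The genes described here are 42 genes of the Myc network and of ribosome biogenesis, chosen by name among the 24341 genes listed for each sample. They comprise 8 genes for Myc proteins, their partner Max and Max-binding repressors, 31 nucleolar and RNA polymerase I genes, and 3 growth enzymes that are classical Myc targets. Poly(A) RNA of mouse embryonic fibroblasts (MEFs) of C57BL/6 background, cultured in DMEM with 10% FBS, was sequenced in 9 samples. The labels name 3 genotypes with 3 samples each, WT, *Atm-/-*, which lacks the DNA damage kinase ATM, and *Sirt6-/-*, which lacks the NAD-dependent deacylase SIRT6. The labels also list P53-/- and Atm-/-P53-/- mice as sources of MEFs without tying them to a sample, and the study's methods describe immortalised *Atm-/-*; *p53-/-* MEFs and *Sirt6-/-* MEFs obtained from separate laboratories. Genotype, cell line of origin and p53 status therefore cannot be told apart here. The labels do not say that samples of a genotype were separate cultures, so p-values measure the spread between these samples, which may be technical.

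Myc binds DNA as a dimer with Max at the E-box CACGTG and activates genes of cell growth. Max also pairs with Mxd proteins and Mnt, which recruit histone deacetylases and repress at the same motif. Ribosome production is among the best known Myc programmes. RNA polymerase I transcribes ribosomal RNA in the nucleolus, snoRNPs modify it, and assembly factors process it into the small and large subunits.

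Among the genes with an E-box near the start, the most abundant one of each role group is shown, because this is the motif that Myc and Max dimers are known to bind. The sequences are RefSeq windows on GRCm38.p6, from 250 bases before to 50 bases after a transcript start, read 5′ to 3′ on the gene's strand. Capitals mark CACGTG, which reads the same on both strands and begins at position -3 from the start in *Max*, 41 in *Mybbp1a*, -60 in *Nop2*, 3 in *Pes1* and 18 in *Wdr43*, where 1 is the first transcribed base. The window of *Max* is chr12:76962199-76962498 on the minus strand. Those of *Mybbp1a* (chr11:72441077-72441376), *Nop2* (chr6:125131633-125131932), *Pes1* (chr11:3963725-3964024) and *Wdr43* (chr17:71615965-71616264) lie on the plus strand.
Max: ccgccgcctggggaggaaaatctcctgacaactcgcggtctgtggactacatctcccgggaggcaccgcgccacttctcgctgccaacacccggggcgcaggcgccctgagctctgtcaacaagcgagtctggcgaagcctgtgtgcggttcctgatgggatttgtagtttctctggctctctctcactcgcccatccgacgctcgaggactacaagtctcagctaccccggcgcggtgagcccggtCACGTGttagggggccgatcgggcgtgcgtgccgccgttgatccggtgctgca
Mybbp1a: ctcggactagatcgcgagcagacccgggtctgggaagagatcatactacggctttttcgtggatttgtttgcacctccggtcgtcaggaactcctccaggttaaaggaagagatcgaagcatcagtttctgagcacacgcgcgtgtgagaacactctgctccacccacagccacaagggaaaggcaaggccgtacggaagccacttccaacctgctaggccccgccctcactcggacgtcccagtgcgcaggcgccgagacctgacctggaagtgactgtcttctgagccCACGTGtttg
Nop2: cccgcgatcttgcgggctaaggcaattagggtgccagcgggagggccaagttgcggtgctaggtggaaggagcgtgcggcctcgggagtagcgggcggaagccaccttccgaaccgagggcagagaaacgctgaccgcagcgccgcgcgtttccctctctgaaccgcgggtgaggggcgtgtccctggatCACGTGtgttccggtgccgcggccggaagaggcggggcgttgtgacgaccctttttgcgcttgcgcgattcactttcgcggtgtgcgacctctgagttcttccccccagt
Pes1: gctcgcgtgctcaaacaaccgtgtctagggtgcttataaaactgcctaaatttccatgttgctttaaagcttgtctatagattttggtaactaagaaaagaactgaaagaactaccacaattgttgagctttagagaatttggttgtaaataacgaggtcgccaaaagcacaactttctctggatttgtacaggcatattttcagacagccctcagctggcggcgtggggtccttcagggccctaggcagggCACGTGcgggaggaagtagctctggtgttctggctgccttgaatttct
Wdr43: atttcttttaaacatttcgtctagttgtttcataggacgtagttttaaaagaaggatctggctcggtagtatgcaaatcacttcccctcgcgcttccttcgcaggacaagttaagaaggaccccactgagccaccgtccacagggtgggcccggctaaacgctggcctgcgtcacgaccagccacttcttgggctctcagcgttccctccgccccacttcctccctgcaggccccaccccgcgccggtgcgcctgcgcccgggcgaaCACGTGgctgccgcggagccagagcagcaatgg

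A window was matched for 36 of the 42 genes. It was not for *Myc*, *Srm*, *Rrs1*, *Npm1*, *Bop1* and *Fbl*. CACGTG stood in at least 1 window of 9 of the 36 genes (25.0%), which were *Max*, *Mnt*, *Mxd4*, *Pes1*, *Mybbp1a*, *Nop2*, *Utp20*, *Tsr1* and *Wdr43*. The share was 11.7% among 10303 matched genes that were tested for expression and 8.09% among all 27025 genes with a window. Counted by window of equal length, 9 of 45 windows of these genes (20.0%) held it, against 9.78% of the windows of tested genes and 7.15% of all 32851 windows. Without the Myc and Max genes, the shares were 6 of 29 genes (20.7%) and 6 of 38 windows (15.8%). The related motif CACGCG, or CGCGTG on the other strand, stood in windows of 12 of the 36 genes (33.3%), against 19.8% of the tested genes and 10.5% of all genes. These shares describe letters in the windows and carry no test, and they do not show binding.

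Each sample held between 32187040 and 33837949 reads on genes, so that 3 reads correspond to 0.0887 to 0.0932 CPM (reads scaled to a common library size). *Atm*, the gene targeted in the libraries labelled *Atm-/-*, had 1536, 1617 and 1627 reads in WT and 3768, 3564 and 3443 reads in those libraries, so its RNA was higher there and does not check the label. Counts over the whole gene do not show which exons are present. *Sirt6* had 487, 402 and 472 reads in WT and 4, 5 and 7 in *Sirt6-/-*. *Trp53* was at 208 to 227 normalized CPM in WT, 23.2 to 27.4 in the libraries labelled *Atm-/-* and 276 to 282 in *Sirt6-/-*. Marker sums also differed. The 10 fibroblast markers, of which *Lum* was near 0 throughout and *Thy1* at 0.0307 to 1.02 CPM in *Sirt6-/-*, summed to 27663 to 30788 CPM in WT, 8734 to 8996 in labelled *Atm-/-* and 18748 to 19140.2 in *Sirt6-/-*. Of 9 tested, 8 were lower and 1 higher in labelled *Atm-/-*, and 6 lower and 3 higher in *Sirt6-/-*. Among all tested genes, 33.6% were lower and 34.7% higher in labelled *Atm-/-*, and 37.4% and 39.2% in *Sirt6-/-*. The 6 neural markers summed to 7.83 to 9.03, 277 to 286 and 270.4 to 292 CPM, mostly from *Nes* and *Map2*, while *Sox10* and *Elavl3* were near 0 throughout. Of these genes, 4 of 5 tested were called higher in labelled *Atm-/-*, and all 3 tested in *Sirt6-/-*. Sums of epithelial, endothelial, leukocyte, skeletal muscle and pluripotency markers stayed at or below 48.5 CPM in every sample. Counts of WT replicate 2 stood farther from the other WT samples (chi-square per gene 15.6 and 14.4) than these did from each other (6.23), and counts without it are given below. Bulk RNA cannot tell fewer cells of a type from less RNA per cell.

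All 42 genes passed the filter on low counts and were tested in each comparison. As levels per transcript length, they spanned 1.30 to 1165 RPKM in WT (means of 3 samples), with a median of 46.7. *Npm1*, the gene of nucleophosmin, was highest at 1165 ± 67.3 RPKM (SD, n = 3). *Ncl*, *Odc1* and *Nop56* followed at 235 ± 11.1, 225 ± 3.07 and 215 ± 14.3 RPKM, and these neighbours differed by less than their summed SDs. The length listed for *Ncl*, 8257 bases, is longer than its usual mRNA and lowers its RPKM. In *Sirt6-/-*, *Npm1* stayed first at 884 ± 13.9 and *Odc1* stood at 94.1 ± 2.92 RPKM, below *Nop56*, *Ncl*, *Mybbp1a* and *Pa2g4*. The lowest in WT were *Mxd1* at 1.30 ± 0.161 and *Mycl* at 2.27 ± 0.242 RPKM. Together the 42 genes took 0.991 to 1.07% of all reads in WT, 1.27 to 1.32% in the libraries labelled *Atm-/-* and 0.643 to 0.672% in *Sirt6-/-*. The 3 ranges did not overlap.

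In the libraries labelled *Atm-/-*, 21 of the 42 genes were higher than in WT and 6 lower, and in *Sirt6-/-* 3 were higher and 36 lower. Calls are at an adjusted p under 0.05 in edgeR's quasi-likelihood test, adjusted over all tested genes with the Benjamini-Hochberg method. Changes were widespread in both comparisons, so these counts have to be read against the background. In the first, 64.3% of the 42 genes were called against 68.4% of all 13283 tested genes, with 50% higher and 14.3% lower against 34.7% and 33.6% of all genes. In the second, 92.9% were called against 76.6% of all 13206, with 7.14% higher and 85.7% lower against 39.2% and 37.4%. The median log2 fold change of the 42 genes was 0.13 in labelled *Atm-/-*, where that of all tested genes was 0.02. In *Sirt6-/-* it was -0.59, against 0.02 for all tested genes. The samples of both groups did not overlap for 28 of the 42 genes in the first comparison (72.6% of all tested genes) and for 40 in the second (79%). Both comparisons use the same WT samples.

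**Figure D1:**
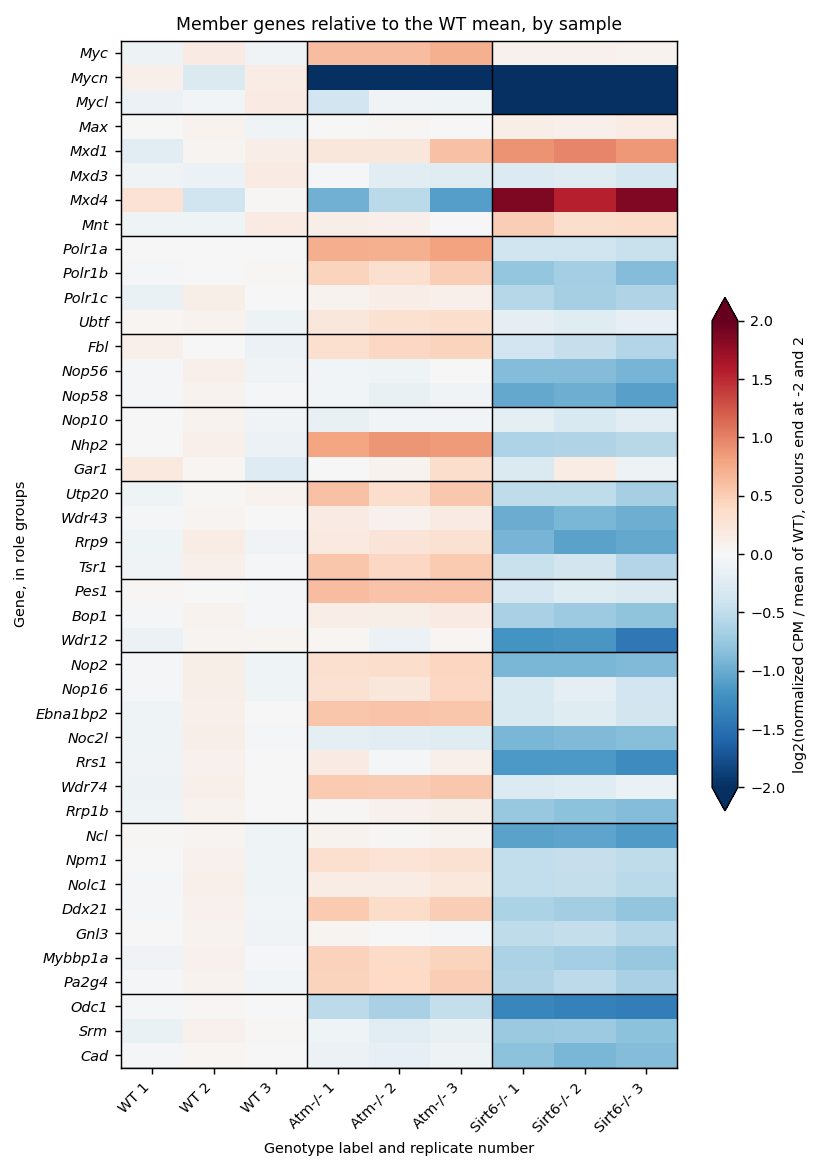
Each row is a gene and each column a sample; colour gives log2 of the normalized CPM over the mean of the 3 WT samples, with colours ending at -2 and 2, and lines separate the role groups. Most rows below the Myc and Max genes are blue in the 3 *Sirt6-/-* columns, while the 3 columns labelled *Atm-/-* are red or near white except for *Noc2l*, *Odc1*, *Srm* and *Cad*.

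The sizes were moderate outside the Myc and Max genes. Regardless of sign, the median log2 fold change of the 42 genes was 0.27 in labelled *Atm-/-*, below the 0.40 of all tested genes. In *Sirt6-/-* it was 0.65, against 0.54 for all tested genes. Counting only changes of at least 2-fold, 0 genes were higher and 1, *Mycn*, lower in labelled *Atm-/-*, and 1 was higher and 8 lower in *Sirt6-/-*. The share of all tested genes at 2-fold was not counted, so these numbers cannot be read against a background. The direction of small changes in labelled *Atm-/-* depended on scaling. With library totals in place of TMM normalization the median of all tested genes moved to 0.18 and that of the 42 genes to 0.30, and 30 of the 42 were called higher and 3 lower. The 9 genes added to those called higher were *Max*, *Mxd1*, *Mnt*, *Polr1c*, *Gar1*, *Rrs1*, *Rrp1b*, *Ncl* and *Gnl3*. Of the called genes among the 42, 90.9% were then higher in place of 77.8%, and of all called genes 64.9% in place of 50.8% (6156 higher and 3326 lower). In *Sirt6-/-* the same scaling gave 5 higher and 32 lower, with a median of -0.50 where all tested genes had 0.11. Without WT replicate 2, 23 were higher and 5 lower in labelled *Atm-/-*, and 5 higher and 36 lower in *Sirt6-/-*.

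The labelled *Atm-/-* and *Sirt6-/-* samples were also compared directly, with no WT sample in the fit. Of the 42 genes, 36 were higher in labelled *Atm-/-*, 4 were lower and 2 (*Max* and *Mxd3*) were not called. This made 95.2% called against 75.8% of all 13460 tested genes, with 85.7% higher and 9.52% lower against 38% and 37.8%. The median log2 fold change was 0.86, and 0.00 over all tested genes. Samples did not overlap for 40 of the 42 genes, against 78.2% of all tested genes. Outside the Myc and Max genes, each of the 34 genes was higher in labelled *Atm-/-*, with log2 fold changes from 0.15 to 1.44 and a median of 0.88. The smallest, *Nop10* (0.15) and *Gar1* (0.22), lost the call in some alternatives. *Nop10* was not called without *Sirt6-/-* replicate 2 or labelled *Atm-/-* replicate 2 or 3 (adjusted p from 0.0576 to 0.106). At 2-fold or more, 14 of the 42 were higher and 1 lower, with no count of all tested genes at that threshold. With library totals the counts were again 36 and 4.

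**Figure D2:**
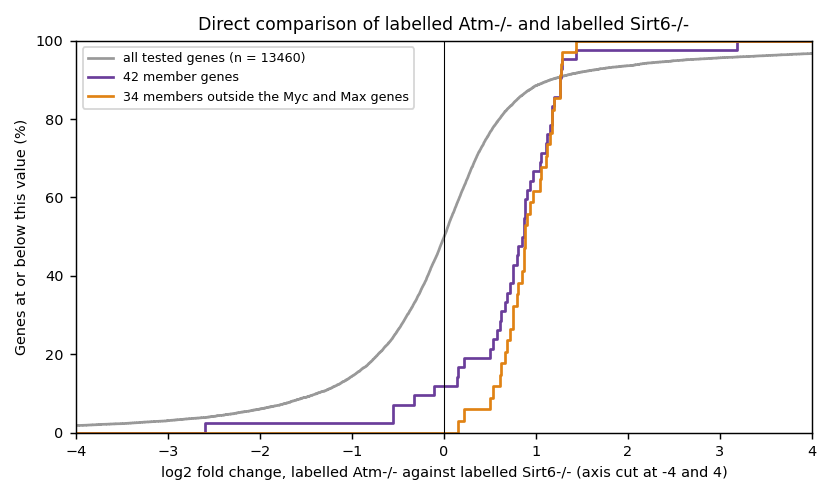
The curves give the percentage of genes at or below each log2 fold change of labelled *Atm-/-* against *Sirt6-/-*, for all 13460 tested genes, the 42 genes and the 34 outside the Myc and Max genes (horizontal axis cut at -4 and 4). The curve of the 34 genes lies wholly to the right of 0, from 0.15 to 1.44, whereas all tested genes centre on 0.00.

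*Myc* (chr15:61985341-61990361, GRCm38.p6), the broadly expressed member of the family, had 134, 161 and 137 normalized CPM in WT, 222, 221 and 235 in labelled *Atm-/-*, and 153, 152 and 150.3 in *Sirt6-/-*. All labelled *Atm-/-* samples lay above all others, while *Sirt6-/-* lay inside the WT range. The rise in labelled *Atm-/-* was 1.56-fold (log2 fold change 0.64 with a standard error of 0.06, edgeR adjusted p = 4.14e-07). In *Sirt6-/-* the log2 fold change was 0.08 (standard error 0.06, adjusted p = 0.262), and without WT replicate 2 it passed the threshold at 0.15 (adjusted p = 0.00745). The direct comparison gave 0.58 (standard error 0.04, adjusted p = 5.12e-11).

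*Mycn* (chr12:12936093-12941836), the paralogue best known from embryonic and neural tissue, showed the largest change of the 42 genes. It had 110.5, 84.0 and 113 CPM in WT, 2.68, 3.996 and 3.04 in labelled *Atm-/-*, and 5.12, 5.90 and 3.36 in *Sirt6-/-*. These rest on 3523, 2627 and 3566 reads in WT, 93, 140 and 103 in labelled *Atm-/-*, and 167, 191 and 112 in *Sirt6-/-*. Labelled *Atm-/-* and *Sirt6-/-* both lay far below WT, and they overlapped each other. *Mycn* was 31.8-fold lower in labelled *Atm-/-* (log2 fold change -4.99 with a standard error of 0.14, adjusted p = 4.48e-13) and 21.4-fold lower in *Sirt6-/-* (-4.42, 0.16, 2.19e-12). The direct difference was -0.56 (standard error 0.22, adjusted p = 0.0251), and it was not called without *Sirt6-/-* replicate 1 or 2 or without labelled *Atm-/-* replicate 1 or 3 (adjusted p up to 0.158).

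*Mycl* (chr4:122995588-123002490), the third family member, fell in *Sirt6-/-*. It had 8.12, 8.50 and 9.87 CPM in WT, 6.78, 8.45 and 8.33 in labelled *Atm-/-*, and 0.767, 0.989 and 0.840 in *Sirt6-/-*, where 25, 32 and 28 reads were counted. The first 2 groups overlapped and *Sirt6-/-* lay below both. *Mycl* was 10.2-fold lower in *Sirt6-/-* (log2 fold change -3.35, standard error 0.20, adjusted p = 1.02e-09). In labelled *Atm-/-* its log2 fold change was -0.18 (adjusted p = 0.270), and the direct comparison gave 3.18 (standard error 0.20, adjusted p = 1.03e-11).

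Summed per transcript length, the 3 family members held 100.7, 102 and 103 TMM-normalized RPKM in WT, 95.3, 95.8 and 101.2 in labelled *Atm-/-*, and 66.0, 65.9 and 64.2 in *Sirt6-/-*. This sum was chosen after the values were seen and is a description only. The sums of WT and labelled *Atm-/-* overlapped, and those of *Sirt6-/-* lay below both. *Myc* made up 58.9 ± 6.08% of the sum in WT, 96.5 ± 0.499% in labelled *Atm-/-* and 96.8 ± 0.751% in *Sirt6-/-* (SD, n = 3). *Mycn* made up the greater part of the remainder in WT, at 38.8 ± 6.01%.

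**Figure D3:**
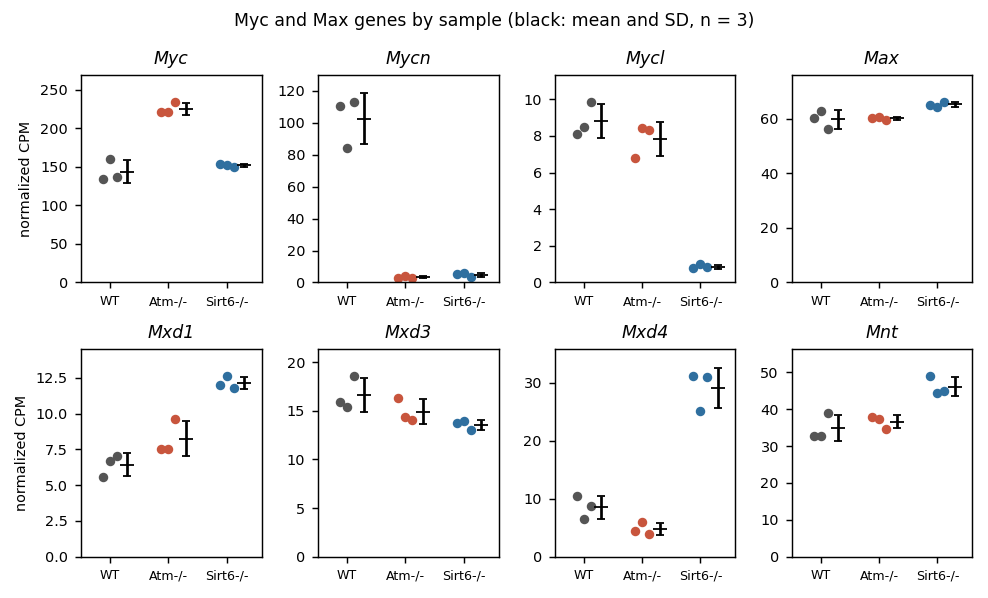
Points give the normalized CPM of each sample for the 8 Myc and Max genes (vertical axes start at 0), with the mean and SD of 3 samples in black. *Mycn* is near the axis in labelled *Atm-/-* and in *Sirt6-/-*, *Mycl* only in *Sirt6-/-*, *Myc* is highest in labelled *Atm-/-*, and *Mxd1*, *Mxd4* and *Mnt* are highest in *Sirt6-/-*.

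*Max*, the obligate partner, had 60.3, 63.0 and 56.2 CPM in WT, 60.3, 60.6 and 59.5 in labelled *Atm-/-*, and 65.0, 64.4 and 66.3 in *Sirt6-/-*. None of its differences was called, with log2 fold changes of 0.00 in labelled *Atm-/-* and 0.13 in *Sirt6-/-* (adjusted p = 0.999 and 0.0662). The *Sirt6-/-* samples lay above the others without overlap, and without WT replicate 2 the adjusted p was 0.0339. *Max* was also called in *Sirt6-/-* with library totals (0.22, adjusted p = 0.00406). The same held with at least 10 counts in every sample (adjusted p = 0.0374) and with all 9 samples in 1 fit (adjusted p = 0.0492).

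Among the Max-binding repressors, 3 of 4 were higher in *Sirt6-/-* than in WT, against 39.2% of all tested genes. *Mxd4* had 10.5, 6.52 and 8.67 CPM in WT, 4.41, 5.91 and 3.99 in labelled *Atm-/-*, and 31.2, 25.1 and 31.0 in *Sirt6-/-*. Its 3 groups did not overlap. It rose 3.40-fold in *Sirt6-/-* (log2 fold change 1.76 with a standard error of 0.14, adjusted p = 3.50e-08) and fell in labelled *Atm-/-* (-0.85, 0.19, 0.00128). An antisense gene overlaps an exon of *Mxd4*, and its reads are not separable here. *Mxd1*, which is induced in differentiating cells, had 5.55, 6.71 and 7.05 CPM in WT and 11.99, 12.6 and 11.8 in *Sirt6-/-* (log2 fold change 0.92, standard error 0.13, adjusted p = 1.38e-05). In labelled *Atm-/-* it had 7.53, 7.53 and 9.66 CPM without overlap with WT and was not called (0.35, adjusted p = 0.0551). It was called there with library totals (0.51, adjusted p = 0.00782), with at least 10 counts in every sample (adjusted p = 0.0431), with all 9 samples in 1 fit (adjusted p = 0.0304), and without WT replicate 2, WT replicate 3 or labelled *Atm-/-* replicate 2.

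*Mnt*, the most widely expressed antagonist of Myc, had 32.9, 32.7 and 38.9 CPM in WT and 49.0, 44.5 and 44.9 in *Sirt6-/-* (log2 fold change 0.41, adjusted p = 2.89e-04). *Mxd3*, whose expression accompanies S phase, went the other way in *Sirt6-/-* (-0.29, adjusted p = 0.0198), a call that was lost with library totals (-0.20, adjusted p = 0.0938) and without WT replicate 3 or *Sirt6-/-* replicate 3. All of *Mxd1*, *Mxd4* and *Mnt* were lower in labelled *Atm-/-* than in *Sirt6-/-* in the direct comparison, with log2 fold changes of -0.55, -2.60 and -0.33. Per length, the 4 repressors summed to 29.0 ± 2.89 TMM-normalized RPKM in WT, 25.3 ± 1.30 in labelled *Atm-/-* and 47.8 ± 3.02 in *Sirt6-/-* (SD, n = 3). The ratio of the Myc family sum to this sum was 3.54 ± 0.344, 3.87 ± 0.338 and 1.37 ± 0.0962. Like the family sum, both were chosen after the values were seen. *Mxd4*, whose reads cannot be separated from its antisense gene, made up most of the rise of the repressor sum in *Sirt6-/-*. Its deposited RPKM averaged 6.84 in WT and 24.7 in *Sirt6-/-*.

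The genes of RNA polymerase I and its architectural factor were higher in labelled *Atm-/-* in 3 of 4 cases and lower in *Sirt6-/-* in all 4. Of all tested genes, 34.7% were higher in labelled *Atm-/-* and 37.4% lower in *Sirt6-/-*. *Polr1a*, the largest subunit, had 183, 185 and 181 CPM in WT, 305, 301 and 319.9 in labelled *Atm-/-*, and 138, 139 and 134 in *Sirt6-/-*. Its 3 groups were well apart. The log2 fold changes were 0.75 and -0.42 against WT (standard error 0.04 each, adjusted p = 1.28e-09 and 6.70e-07), and 1.18 in the direct comparison. *Polr1b*, the other large subunit, moved by 0.42 and -0.77. *Polr1c*, which RNA polymerase III shares, was not called in labelled *Atm-/-* (0.09) and was lower in *Sirt6-/-* (-0.61). *Ubtf*, which coats the active ribosomal DNA, moved by 0.29 and -0.20, and its call in *Sirt6-/-* was lost with library totals (-0.11, adjusted p = 0.0754).

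The snoRNP proteins split by gene. *Fbl*, the methyltransferase of box C/D particles, had 145, 135 and 123 CPM in WT, 168, 179.5 and 182 in labelled *Atm-/-*, and 103, 97.4 and 89.4 in *Sirt6-/-*, with 3 separate ranges and log2 fold changes of 0.39 and -0.47. Its scaffold partners *Nop56* and *Nop58* were not called in labelled *Atm-/-* (-0.05 and -0.10, and 0.11 and 0.06 with library totals) and fell in *Sirt6-/-* by 0.89 and 1.02 on the log2 scale. *Nop58* had 339, 363 and 335 CPM in WT against 170.2, 177 and 163 in *Sirt6-/-*.

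Of the box H/ACA proteins, which serve pseudouridylation and telomerase RNA, *Nhp2* changed most. It had 114, 121 and 104 CPM in WT, 195 to 209 in labelled *Atm-/-* and 73.7 to 77.1 in *Sirt6-/-*, with log2 fold changes of 0.84 (standard error 0.06, adjusted p = 7.76e-09) and -0.59 (0.06, 4.39e-07). The direct difference of 1.44 was the largest rise among the 34 biogenesis genes and growth enzymes. *Gar1* had 51.0, 45.8 and 37.4 CPM in WT, 44.2, 46.9 and 57.0 in labelled *Atm-/-*, and 36.7, 49.6 and 41.6 in *Sirt6-/-*. These ranges overlapped in each pair, and neither comparison with WT called it (0.13, and -0.07, which became 0.02 with library totals). The direct call of *Gar1* (0.22, adjusted p = 0.0424) was lost with all 9 samples in 1 fit (adjusted p = 0.112) and without *Sirt6-/-* replicate 1, *Sirt6-/-* replicate 3 or labelled *Atm-/-* replicate 3 (adjusted p up to 0.321). *Nop10* was close to WT in labelled *Atm-/-* (-0.09, not called, and 0.07 with library totals) and lower in *Sirt6-/-* (-0.23, adjusted p = 0.00436), which was not called with library totals (-0.14).

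Each of the 4 small-subunit assembly factors was higher in labelled *Atm-/-* and lower in *Sirt6-/-* than in WT. The shares of all tested genes were 34.7% higher in labelled *Atm-/-* and 37.4% lower in *Sirt6-/-*. *Utp20*, a large scaffold of the small-subunit processome, had 169, 182 and 188 CPM in WT, 268, 229 and 262 in labelled *Atm-/-*, and 127, 126 and 113 in *Sirt6-/-*. *Rrp9*, a U3 snoRNP protein, had 70.6, 82.8 and 71.5, then 85.8, 89.6 and 92.2, and then 39.3, 35.6 and 36.8 CPM. For both genes the 3 groups were apart, with log2 fold changes of 0.49 and -0.56 for *Utp20* and of 0.24 and -1.01 for *Rrp9*. *Tsr1*, needed for the late cytoplasmic steps, moved by 0.49 and -0.46. *Wdr43* of the UTP-A complex moved by 0.13 and -0.96, and its rise in labelled *Atm-/-* (adjusted p = 0.0154) was not called without WT replicate 1 (adjusted p = 0.0559). In the direct comparison the 4 genes differed by 0.96 to 1.27.

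The PeBoW complex of *Pes1*, *Bop1* and *Wdr12* acts as a unit in large-subunit processing, but its 3 genes changed by unequal amounts. *Pes1* had 164, 162 and 159.7 CPM in WT, 248, 240.4 and 241 in labelled *Atm-/-*, and 129, 137 and 133 in *Sirt6-/-*. *Wdr12* had 73.6, 82.9 and 83.3, then 81.8, 74.1 and 82.5, and then 34.9, 35.6 and 29.6 CPM. Thus *Pes1* was higher in all labelled *Atm-/-* samples, whereas *Wdr12* overlapped WT there and was lowest in *Sirt6-/-*. The log2 fold changes were 0.58 and -0.29 for *Pes1*, 0.13 and -0.72 for *Bop1*, and -0.02 (not called, 0.15 with library totals) and -1.26 for *Wdr12*. The call of *Bop1* in labelled *Atm-/-* (adjusted p = 0.0180) was lost without WT replicate 1, WT replicate 3 or labelled *Atm-/-* replicate 3 (adjusted p up to 0.0610).

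All 7 other large-subunit factors were lower in *Sirt6-/-* than in WT, by log2 fold changes from -0.21 to -1.19. Of all tested genes, 37.4% were lower in *Sirt6-/-* and 34.7% higher in labelled *Atm-/-*. In labelled *Atm-/-*, 4 of the 7 factors were higher. These were *Ebna1bp2* (0.56), *Wdr74* (0.52), *Nop2*, an RNA methyltransferase gene (0.36), and *Nop16* (0.31). *Nop2* fell by 0.91 on the log2 scale in *Sirt6-/-*, and the direct difference was 1.29. *Rrs1*, which helps load the 5S RNP, fell most in *Sirt6-/-*, from 84.4, 94.0 and 88.4 CPM to 40.2, 39.9 and 37.1 (-1.19, standard error 0.06, adjusted p = 2.38e-10). It had 100.1, 86.8 and 95.4 CPM in labelled *Atm-/-*, overlapping WT. *Rrp1b* had 0.07 in labelled *Atm-/-*, which was not called, and -0.81 in *Sirt6-/-*. *Noc2l* was lower than WT in both, by -0.23 and -0.88, though with library totals its log2 fold change in labelled *Atm-/-* was -0.07 (adjusted p = 0.281). The smallest fall in *Sirt6-/-*, that of *Wdr74* (-0.21), was not called with library totals (-0.13, adjusted p = 0.115) or without *Sirt6-/-* replicate 1 (adjusted p = 0.0542).

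The 7 multifunctional nucleolar proteins include the most abundant transcripts of the set. *Ncl*, the gene of nucleolin, had 2099, 2137 and 1945 CPM in WT, 2169, 2104 and 2154 in labelled *Atm-/-*, and 983, 989.5 and 935 in *Sirt6-/-*. WT and labelled *Atm-/-* overlapped, and *Sirt6-/-* lay far below both (log2 fold change -1.09, standard error 0.05, adjusted p = 2.46e-11). *Npm1* had 1745, 1869 and 1660.0 CPM in WT, 2189, 2113 and 2179 in labelled *Atm-/-*, and 1248, 1273 and 1241 in *Sirt6-/-*. It was called in both comparisons, at 0.29 and -0.49. *Ncl* had 0.05 in labelled *Atm-/-*, which was not called (adjusted p = 0.321), and 0.21 with library totals, which was (adjusted p = 0.000314). The helicase gene *Ddx21* had 351, 383 and 346 CPM in WT, 515, 466 and 506 in labelled *Atm-/-*, and 232, 223 and 208 in *Sirt6-/-* (0.45 and -0.70).

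*Mybbp1a*, a Myb-binding protein of the nucleolus, moved by 0.42 and -0.68. *Pa2g4*, an ErbB3-binding protein, moved by 0.44 and -0.59. *Nolc1*, the snoRNP chaperone Nopp140, moved by 0.16 and -0.50. *Gnl3*, the gene of nucleostemin, was not called in labelled *Atm-/-* (0.00, and 0.16 with library totals, which called it) and was lower in *Sirt6-/-* (-0.52). All 7 were higher in labelled *Atm-/-* than in *Sirt6-/-*, by 0.53 to 1.17, against 38% of all tested genes.

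**Figure D4:**
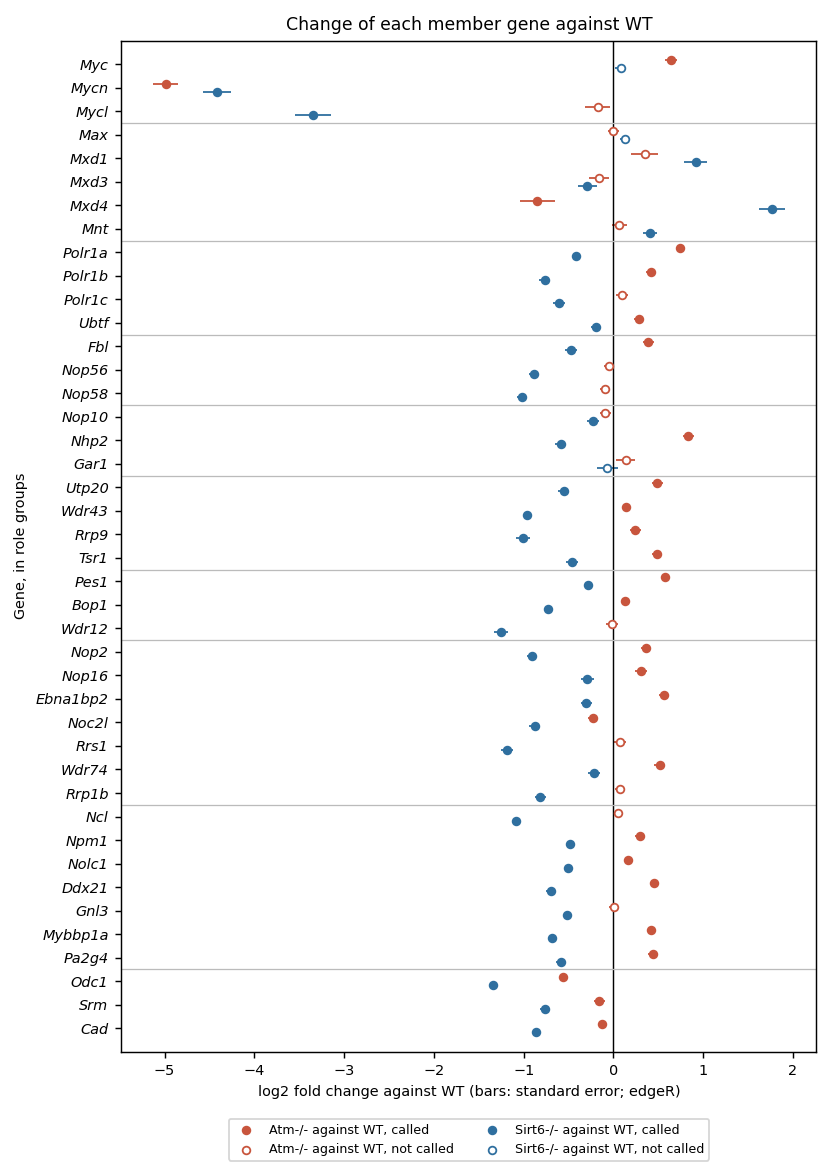
Points give the log2 fold change of each gene in labelled *Atm-/-* (red) and in *Sirt6-/-* (blue) against the same 3 WT samples, with standard errors, filled where the adjusted p was under 0.05. The blue points of the 34 genes below *Mnt* range from -1.34 to -0.07, and the red ones from -0.56 to 0.84.

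All 3 growth enzymes were called lower in labelled *Atm-/-* and in *Sirt6-/-* than in WT, except that *Cad* and *Srm* turned sign in labelled *Atm-/-* with library totals. Of all tested genes, 33.6% were lower in labelled *Atm-/-* and 37.4% in *Sirt6-/-*. *Odc1*, the rate-limiting enzyme of polyamine synthesis, had 599, 616 and 607 CPM in WT, 423, 386 and 435 in labelled *Atm-/-*, and 246, 238 and 234 in *Sirt6-/-*. Its 3 groups were apart, with log2 fold changes of -0.56 (standard error 0.05, adjusted p = 1.04e-07) and -1.34 (0.04, 8.04e-13), and with library totals it was still lower in labelled *Atm-/-* (-0.39). *Cad*, which starts pyrimidine synthesis, had 352, 368 and 357 CPM in WT, 332, 319.9 and 336 in labelled *Atm-/-*, and 203, 189.7 and 198 in *Sirt6-/-*. *Srm*, spermidine synthase, overlapped WT in labelled *Atm-/-*. In labelled *Atm-/-* the log2 fold changes of *Cad* (-0.13, adjusted p = 0.0130) and *Srm* (-0.16, adjusted p = 0.0298) became 0.03 and 0.01 with library totals, and leaving out samples gave adjusted p up to 0.0806 and 0.143. In *Sirt6-/-* they were -0.87 and -0.76 and called.

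Other genes of these pathways were counted from lists that do not hold the 42 genes. For reference, 34.7% of all tested genes were higher and 33.6% lower in labelled *Atm-/-*, and 39.2% and 37.4% in *Sirt6-/-*. Directly, 38% were higher and 37.8% lower in labelled *Atm-/-*. Of 37 other small-subunit processome genes, 25 were higher and 2 lower in labelled *Atm-/-* (median log2 fold change 0.34), and 4 were higher and 26 lower in *Sirt6-/-* (median -0.44). The largest were *Utp14a* (1.42) and *Heatr1* (1.23) in labelled *Atm-/-*, and *Bysl* (-1.26) and *Pno1* (-1.18) in *Sirt6-/-*. Of 39 other large-subunit genes, 23 were higher and 5 lower in labelled *Atm-/-* (median 0.24), and 1 was higher and 29 lower in *Sirt6-/-* (median -0.36), led by *Rbm28* (-1.52). In the direct comparison 36 of the 37 and 37 of the 39 were higher in labelled *Atm-/-* and 0 lower in edgeR's test, with medians of 0.81 and 0.53. All 8 other snoRNP genes were higher in labelled *Atm-/-* (median 0.44) and 5 were lower in *Sirt6-/-* (median -0.22). Of 14 RNA exosome genes, which trim pre-ribosomal RNA, 9 were higher in labelled *Atm-/-* and 8 were lower and 1 higher in *Sirt6-/-*. This was 64.3% called in each, below the 68.4% and 76.6% of all tested genes. By direction, 64.3% of the exosome genes were higher and 0% lower in labelled *Atm-/-*, and 7.14% higher and 57.1% lower in *Sirt6-/-*. Directly, 13 of the 14 exosome genes and all 8 snoRNP genes were higher in labelled *Atm-/-*, and 0 were lower.

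**Figure D5:**
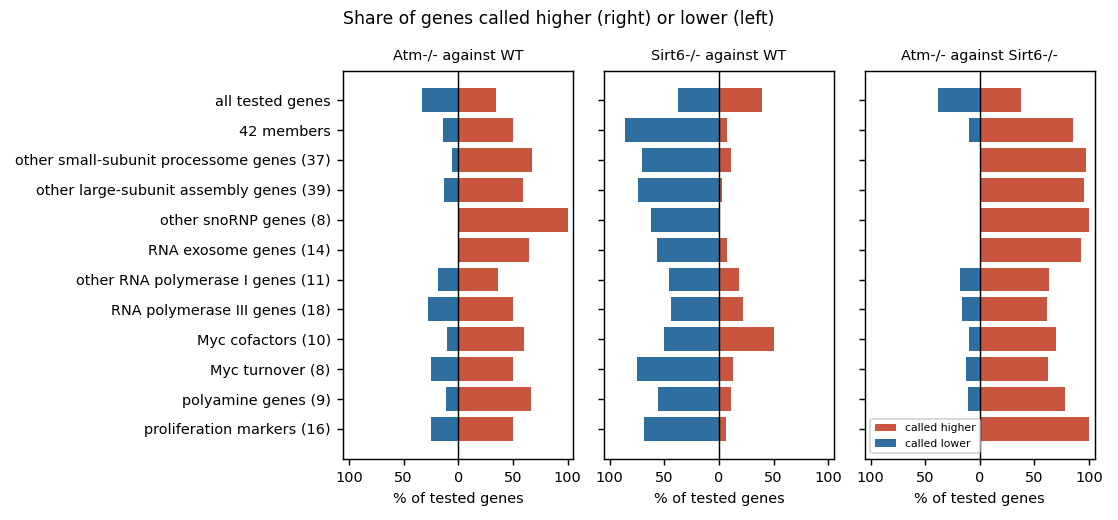
Bars give the percentage of tested genes called higher (right) or lower (left) in each comparison, for all tested genes, the 42 genes and lists of related genes, with the number tested in parentheses. In the third panel no gene of the small-subunit, large-subunit, snoRNP, exosome and proliferation lists is on the left.

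The polymerase lists were more mixed. Of all tested genes, 68.4% were called in labelled *Atm-/-* and 76.6% in *Sirt6-/-*. Of 11 other RNA polymerase I genes, 4 were higher and 2 lower in labelled *Atm-/-* (54.5% called). For *Sirt6-/-*, 2 were higher and 5 lower (63.6% called). Of 18 RNA polymerase III genes, 9 were higher and 5 lower in labelled *Atm-/-* (77.8% called). For *Sirt6-/-*, 4 were higher and 8 lower (66.7% called). Here *Polr3g*, a subunit form known from stem cells, rose in labelled *Atm-/-* (1.05), and its paralogue *Polr3gl* rose in *Sirt6-/-* (1.18). Of 9 polyamine genes besides *Odc1* and *Srm*, 6 were higher and 1 lower in labelled *Atm-/-* (77.8% called). For *Sirt6-/-*, 1 was higher and 5 lower (66.7% called). The oxidase gene *Paox* was higher in both (1.61 and 0.76).

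Further genes around Myc were also counted. Of 4 other genes of the Max and Mlx network tested, 3 were higher and 1 lower in labelled *Atm-/-* (100% called, 68.4% of all tested genes). For *Sirt6-/-*, 2 were higher and 1 lower (75% called, 76.6% of all). *Mlx*, a Max-like partner protein, had the largest change in labelled *Atm-/-* (0.55). *Mxi1*, a further Max-binding repressor, was higher in both (0.44 in labelled *Atm-/-* and 1.58 in *Sirt6-/-*) and differed directly by -1.13. Of 10 Myc cofactors, 6 were higher and 1 lower in labelled *Atm-/-* (70% called, 68.4% of all tested genes). For *Sirt6-/-*, 5 were higher and 5 lower (100% called, 76.6% of all). Of 8 genes of Myc protein turnover, 4 were higher and 2 lower in labelled *Atm-/-* (75% called). For *Sirt6-/-*, 1 was higher and 6 lower (87.5% called). *Ppp2r5a*, a phosphatase subunit that promotes Myc degradation, was lower in both (-1.20 and -1.96). *Usp28*, a deubiquitinase that counters it, was higher in both (0.44 and 0.996). Myc protein was not measured in these files.

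Proliferation markers and p53-induced genes were counted in the same way. Of 16 proliferation markers, 8 (50%) were higher and 4 (25%) lower in labelled *Atm-/-*, against 34.7% and 33.6% of all tested genes. For *Sirt6-/-*, 1 (6.25%) was higher and 11 (68.8%) lower, against 39.2% and 37.4%. Directly, where 38% of all tested genes were higher in labelled *Atm-/-* than in *Sirt6-/-*, all 16 markers were. Their summed level was 4309 to 4767 CPM in WT, 4945 to 5031 in labelled *Atm-/-* and 3485 to 3718 in *Sirt6-/-*. Of 13 p53-induced genes, 8 were lower and 2 higher in labelled *Atm-/-* (76.9% called, 68.4% of all tested genes). For *Sirt6-/-*, 9 were lower and 3 higher (92.3% called, 76.6% of all). The sums of the 13 genes were 1327 to 1548, 679.6 to 748 and 711 to 748 CPM. The part of proliferation, of p53 status and of the fibroblast and neural markers given above in the differences of the 42 genes was not tested.

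Exons of 15 of the 42 genes overlap a gene on the opposite strand. They are *Bop1*, *Gnl3*, *Mxd3*, *Mxd4*, *Mybbp1a*, *Nhp2*, *Noc2l*, *Nop56*, *Pes1*, *Polr1a*, *Rrp1b*, *Rrp9*, *Tsr1*, *Wdr12* and *Wdr43*. The library protocol does not mention strand, so reads of both cannot be told apart. Among the other 27 genes, 13 were higher and 4 lower in labelled *Atm-/-*, and 2 were higher and 22 lower in *Sirt6-/-*. The direct comparison gave 23 higher and 3 lower. Of all tested genes, 34.7% were higher and 33.6% lower in labelled *Atm-/-*, and 39.2% and 37.4% in *Sirt6-/-*. For the direct comparison these shares were 38% and 37.8%. Several of the 42 genes have processed pseudogenes, and how reads with several matches were counted is not given in the sources used here. Of the 9 genes with CACGTG in a window, 6 were higher and 2 lower in the direct comparison (median 0.96), and of the 27 matched genes without it 24 were higher and 2 lower (median 0.80).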

How the data were processed

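RNA-Seq of 3 WT, 3 *Atm-/-* and 3 *Sirt6-/-* MEF samples was used. The authors deposited whole-number read counts for 24341 genes per sample, and RPKM made from these counts with a listed transcript length. The genome build mm10 comes from the submitters' processing notes, and aligner, counter and annotation are not given in the sources used here. Counts were fitted for each pair of genotypes with edgeR 4.0.16 in R 4.3.3, using filterByExpr, TMM, glmQLFit with a prior count of 0.125 and glmQLFTest, all two-sided, with Benjamini-Hochberg adjustment over all tested genes and an adjusted p under 0.05. Standard errors come from the F statistic. Normalized CPM use TMM factors of all 9 samples, and the deposited RPKM serve only for levels between genes. Exon overlaps come from GENCODE M21, promoter windows and positions from RefSeq.

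All 42 genes are named, with at most 2 further genes per list, those of largest called change whose mean reached 3 on the log2 CPM scale and whose samples did not overlap. Genes and lists were chosen with earlier results of these data known. No pair of samples was identical. Deviations of same-numbered samples correlated weakly (from -0.0201 to 0.0307), so the numbers were not used as pairs in the main fits. Between labelled *Atm-/-* and *Sirt6-/-* these correlations were 0.0179 to 0.0307, above those of differently numbered samples (-0.0318 to 0.000302). The procedure was tested on simulated data with 200 genes changed 2-fold. It recovered 199 of them in each comparison, with 11 false calls for labelled *Atm-/-*, 4 for *Sirt6-/-* and 10 directly. It held few changed genes and none under 2-fold, so it does not bear on the smaller, widespread changes reported here. Alternatives were DESeq2 1.42.0 size factors and Wald test, library totals, a minimum of 10 counts in every sample, no filter, all 9 samples in 1 fit, the replicate number as a block, a 2-fold threshold and each sample left out.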

Additional observations from a re-analysis of the deposited data

How the results depend on the processing

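Of the 42 genes, under every alternative except the 2-fold threshold, 23 kept direction and call in labelled *Atm-/-* against WT, 35 in *Sirt6-/-* against WT and 39 in the direct comparison. With library totals, 3 were lower in labelled *Atm-/-* (median 0.298) and 5 higher in *Sirt6-/-* (median -0.498), and the direct median was 0.920. At 2-fold, 0 were higher and 1 lower in labelled *Atm-/-*, 1 higher and 8 lower in *Sirt6-/-*, and 14 higher and 1 lower in the direct comparison. All tested genes were not counted at 2-fold. At least 10 counts in every sample gave a median of 0.157 in labelled *Atm-/-*. Leaving out single samples gave 19 to 23 higher, 4 to 6 lower and medians of 0.127 to 0.172 there, 3 to 5 higher, 35 to 36 lower and -0.620 to -0.561 in *Sirt6-/-*, and 34 to 36 higher, 3 to 4 lower and 0.828 to 0.871 directly.

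Signs turned for log2 fold changes near 0. In labelled *Atm-/-*, *Max* was -9.35e-05 and became 0.00665 with DESeq2 size factors, 0.164 with library totals, 0.0222 with at least 10 counts, 0.00745 with all 9 samples, 0.00121 with the replicate block and 0.00604 in DESeq2's Wald test, and spanned -0.0435 to 0.0368 with samples left out. Library totals gave 0.00129 for *Mxd3*, 0.114 for *Nop56*, 0.0650 for *Nop58*, 0.0727 for *Nop10*, 0.148 for *Wdr12*, 0.00755 for *Srm* and 0.0331 for *Cad*. *Wdr12* was 0.00689 with at least 10 counts and -0.0703 to 0.0408 with samples left out, *Nop56* -0.0852 to 0.00553, and *Gnl3* -0.0318 to 0.0320 and -0.000345 without filter. In *Sirt6-/-*, *Gar1* was 0.0223 with library totals and -0.193 to 0.0297 with samples left out. The cause was not tested, beyond the shift of all genes that library totals bring by construction.

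With a replicate block, edgeR gave 21 higher and 6 lower in labelled *Atm-/-*, 3 and 36 in *Sirt6-/-* and 36 and 4 directly, and changed no call of the 42 genes. Deviations of samples of one number correlated weakly, at 0.0307 or less. Depth limits *Mycl* most, at 25 to 32 reads in *Sirt6-/-*.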
